A study of Mus musculus with 18 samples.

Results

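The genes described here are those of the Schwann cell and its myelin: Sox10, Egr2, Mbp, Pmp22, Mag, Prx and Cnp. All probe sets that the array annotation names for these 7 genes were taken, and each was kept apart from the others. A probe set is a group of short probes on the array that reads 1 transcript or a group of transcripts. For 6 of the 7 genes the table holds such probe sets, 18 of the 45037 tested. Mbp has 8 of them, Sox10 and Cnp 3 each, Egr2 2, and Pmp22 and Mag 1 each, while Prx was not analysed here. By the suffixes of their names, 10 probe sets (_a_at) read several transcripts of 1 gene and 3 (_at) a single sequence, while 1 (_s_at) may read transcripts of more than 1 gene and 4 (_x_at) hold probes that may bind other transcripts.

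RNA came from dorsal root ganglia (DRG) of all spinal levels of adult mice and was read on Affymetrix mouse genome arrays. In the Nav1.7 line, floxed Scn9a was deleted by Cre driven from the Advillin gene Avil, so the deletion is aimed at sensory neurons and not at Schwann cells. The Nav1.8 line is a null mutant of Scn10a and the Nav1.9 line a null mutant of Scn11a. The labels give all littermates as wild type, and no strain is stated. Each of the 3 lines had 3 knockout (KO) arrays and 3 littermate arrays, 18 arrays in 6 groups, and every KO group was set against its own littermates. The study describes the Nav1.7 samples as separate mice. For the other lines neither labels nor methods say whether each array held RNA of 1 animal, and p-values measure the spread between these samples. Values are log2 intensities, so a difference of 1 is a doubling. In whole ganglia, fewer cells of a type and less RNA per cell cannot be told apart.

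Schwann cells are the glia of peripheral nerves, and in the ganglion they wrap the axons that leave the neuron bodies. The transcription factor SOX10 is needed to make and keep them, and together with EGR2 (Krox20) it switches on the myelin genes. MBP compacts the cytoplasmic faces of the myelin membrane and is made in several splice forms. PMP22 is a membrane protein of compact myelin, and its gene is duplicated in the commonest inherited neuropathy. MAG is an adhesion molecule of the membrane that faces the axon. CNP is an enzyme of non-compact myelin, and periaxin, from Prx, links the outer Schwann cell membrane to the basal lamina. MBP, MAG, CNP and SOX10 are also made by oligodendrocytes of the central nervous system, whereas EGR2 sets the Schwann cell apart from these. Which cells of the ganglion gave the Egr2 signal was not tested.

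Promoter sequence was looked at because EGR2 and SOX10 act on the promoters and enhancers of these genes. The RefSeq promoter table (build GRCm38.p6, windows of 300 bases per gene start) gave no window for Sox10, and Mbp was not searched. Windows for Pmp22, Mag, Prx, Egr2 and Cnp were taken from it. Each was searched on both strands for GTGGGCG (a core that EGR factors bind), ACAAAG and ACAATG (cores of SOX sites) and TATAAA (the TATA box). The 3 windows below are shown because each holds a match, and the capitals mark it.
Mag, chr7:30914873-30915172, minus strand: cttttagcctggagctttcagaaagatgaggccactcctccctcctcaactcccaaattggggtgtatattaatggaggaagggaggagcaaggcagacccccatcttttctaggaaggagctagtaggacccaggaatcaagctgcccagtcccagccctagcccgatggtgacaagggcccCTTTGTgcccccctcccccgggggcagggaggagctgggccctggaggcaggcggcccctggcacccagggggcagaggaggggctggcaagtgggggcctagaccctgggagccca
Egr2, chr10:67535249-67535548, plus strand: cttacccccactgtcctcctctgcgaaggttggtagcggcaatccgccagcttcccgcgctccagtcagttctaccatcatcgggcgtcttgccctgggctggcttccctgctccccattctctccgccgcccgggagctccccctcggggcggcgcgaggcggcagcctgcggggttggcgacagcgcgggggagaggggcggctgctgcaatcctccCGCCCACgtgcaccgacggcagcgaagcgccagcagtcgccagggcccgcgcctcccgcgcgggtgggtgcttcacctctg
Cnp, chr11:100574689-100574988, plus strand: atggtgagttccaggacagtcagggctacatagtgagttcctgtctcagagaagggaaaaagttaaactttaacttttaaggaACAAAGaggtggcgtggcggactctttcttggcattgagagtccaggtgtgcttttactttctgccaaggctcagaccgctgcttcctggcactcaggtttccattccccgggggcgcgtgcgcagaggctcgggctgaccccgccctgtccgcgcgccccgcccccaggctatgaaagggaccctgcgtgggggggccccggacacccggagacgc

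The Mag match reads CTTTGT, the reverse complement of ACAAAG, and the Egr2 match reads CGCCCAC, the reverse complement of GTGGGCG. A second Mag window, chr7:30914814-30915113, overlaps the one shown and holds the same match. The third Mag window, the 4 Pmp22 windows, the other 4 Egr2 windows and the Prx window held none of the 4 motifs. Of 32851 mouse windows of the same length, 18.7% held ACAAAG, 12.6% ACAATG, 7.97% GTGGGCG and 13.6% TATAAA, so such matches are common. A match is a string of letters and was not tested as a binding site.

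The targeted genes were read first to check the labels. Scn10a was 2.98-fold lower in Nav1.8 KO DRG and Scn11a 3.62-fold lower in Nav1.9 KO DRG than in their littermates, and the arrays of the groups did not overlap. Scn9a differed by -0.06 on the log2 scale in the Nav1.7 line (adjusted p = 0.706 from limma), so this reading did not show the deletion. Its probe set has the suffix _x_at, so it may bind other transcripts. Whether this probe set lies in the deleted part was not known, so the deletion itself was not tested. Array medians were alike and arrays of 1 group correlated at 0.996 to 0.998. Xist, which coats the inactive X chromosome of females, was high (at least 11.97) on 7 arrays and low (at most 5.65) on 11. All Nav1.7 littermates were Xist-high and all Nav1.8 littermates and all Nav1.9 arrays Xist-low, while Nav1.7 KO replicates 1 and 3 and Nav1.8 KO replicates 2 and 3 were Xist-high. In these KO groups, therefore, not all arrays came from the same animals.

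Between KO and littermates, a single member probe set of the 3 lines passed the test: 1425264_s_at of Mbp, which fell in Nav1.7 KO DRG. In the Nav1.7 line, 1 of the 18 member probe sets passed an adjusted p of 0.05 (limma, Benjamini-Hochberg over all probe sets), and it was lower in KO. That is 5.56% of the members, beside 2.27% of all 45037 probe sets (1.48% lower in KO). In the Nav1.8 line 0 passed (0.00666% of all probe sets), and 0 had an unadjusted p under 0.05. In the Nav1.9 line 0 passed (0.242% of all), and 3 had an unadjusted p under 0.05. At that unadjusted level the Nav1.7 line also had 3 members, and the shares over all probe sets were 13.4%, 8.16% and 10.4% in the Nav1.7, Nav1.8 and Nav1.9 lines. The members' median log2 difference between KO and littermates was 0.02 in the Nav1.7 line, -0.00 in the Nav1.8 line and -0.02 in the Nav1.9 line. Over all probe sets these medians were 0.00, -0.01 and 0.00.

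**Figure D1:**
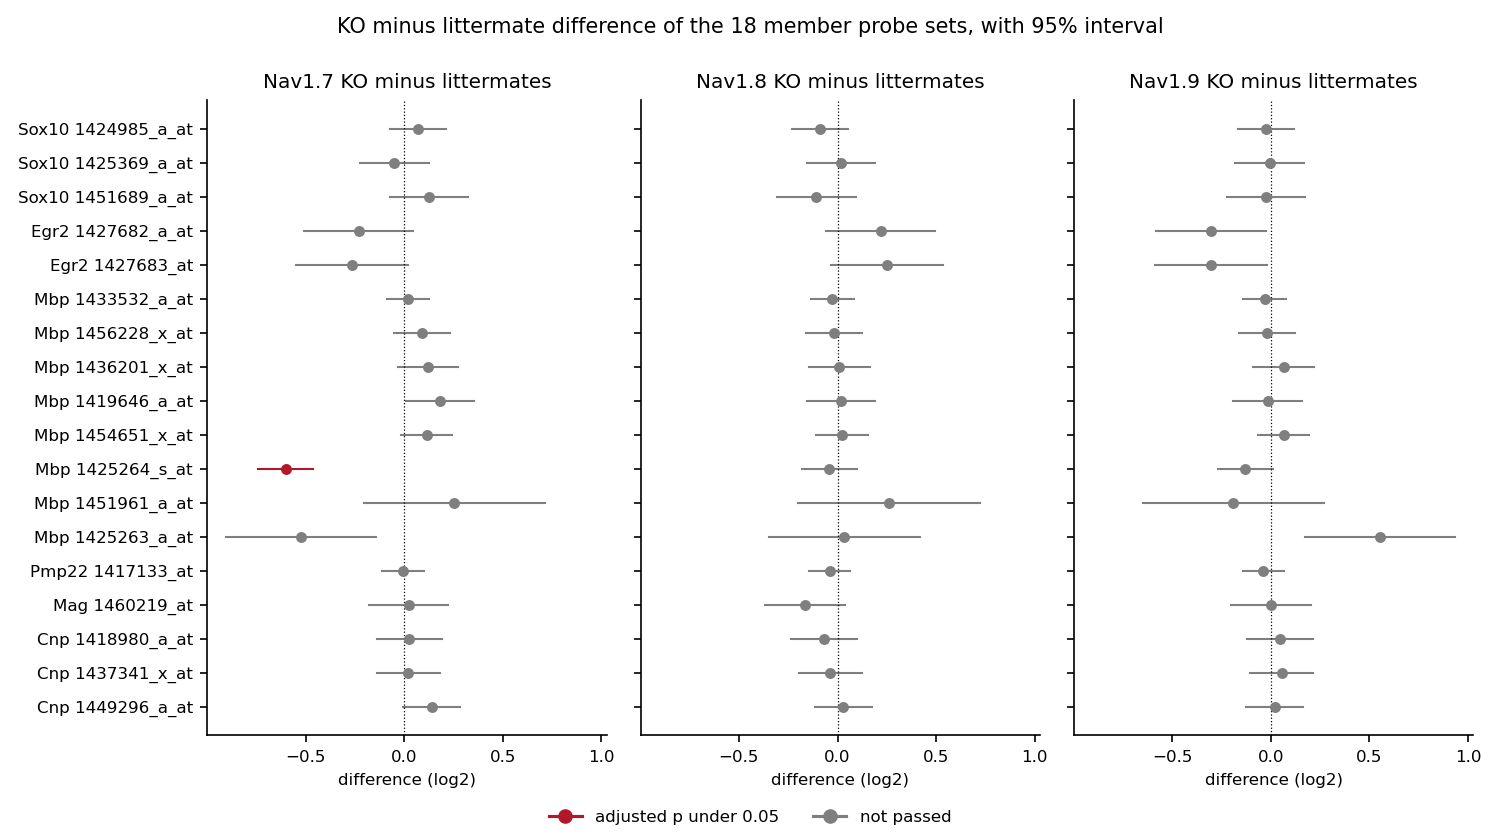
Log2 difference between KO and littermate means (x axis) for each of the 18 member probe sets (y axis), 1 panel per line, with the 95% interval from the limma fit as a bar. The red point is Mbp 1425264_s_at in the Nav1.7 line at -0.60, the only 1 of the 54 differences drawn that passed an adjusted p of 0.05.

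Sox10 was measured by 3 probe sets, none of which passed between KO and littermates in any line. 1451689_a_at read 10.42, 10.20 and 9.97 in Nav1.7 KO DRG, against 10.08, 10.02 and 10.12 in littermates. It read 10.40, 10.25 and 10.37 in Nav1.8 KO against 10.56, 10.43 and 10.35, and 10.16, 10.21 and 10.43 in Nav1.9 KO against 10.28, 10.32 and 10.27. The KO and littermate arrays overlapped in every line, and the differences were 0.13, -0.11 and -0.02 in the Nav1.7, Nav1.8 and Nav1.9 lines (adjusted p = 0.625, 0.810 and 0.964 from limma). Their 95% intervals run from -0.31 at the lowest to 0.32 at the highest. 1424985_a_at, a dimmer probe set, differed by 0.07, -0.09 and -0.02. 1425369_a_at lay between 5.59 and 5.92 on all arrays, and 58.8% of all probe sets were brighter, so it may hold little signal. Detection calls were not used here.

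Egr2 averaged lower than littermates in the Nav1.7 and Nav1.9 KO arrays and higher in the Nav1.8 KO arrays, and no difference passed the test. 1427683_at read 9.07, 8.73 and 9.39 in Nav1.7 KO DRG, against 9.24, 9.37 and 9.37 in littermates. In the Nav1.8 line it read 9.50, 9.43 and 9.13 in KO against 9.24, 9.03 and 9.04, and in the Nav1.9 line 8.20, 8.21 and 8.11 in KO against 8.34, 8.67 and 8.41. The groups overlapped in the Nav1.7 and Nav1.8 lines, and every Nav1.9 KO array lay below every Nav1.9 littermate array. Over all probe sets, 15.9% had Nav1.9 KO and littermate arrays that did not overlap, in either direction. The differences were -0.26 ± 0.134, 0.25 ± 0.134 and -0.30 ± 0.134 (standard error) in the Nav1.7, Nav1.8 and Nav1.9 lines, with adjusted p = 0.421, 0.661 and 0.451 from limma. In the Nav1.9 line the unadjusted p was 0.0391 and the 95% interval -0.59 to -0.02.

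The other Egr2 probe set gave nearly the same picture. 1427682_a_at read 8.89, 8.75 and 9.29 in Nav1.7 KO against 9.13, 9.19 and 9.31, 9.33, 9.36 and 9.01 in Nav1.8 KO against 9.10, 9.05 and 8.89, and 8.06, 8.26 and 8.18 in Nav1.9 KO against 8.29, 8.70 and 8.43. The differences were -0.23, 0.22 and -0.30, and in the Nav1.9 line the KO arrays again lay below all littermates (adjusted p = 0.431 from limma). Deviations from the group means of the 2 Egr2 probe sets correlated at Pearson's r = 0.90 and Spearman's rho = 0.85 over the 18 arrays. The tests of the difference between lines were not passed either: the Nav1.9 effect minus the Nav1.8 effect was -0.55 for 1427683_at (adjusted p = 0.454 from limma) and the Nav1.7 effect minus the Nav1.8 effect was -0.51 (adjusted p = 0.254).

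**Figure D2:**
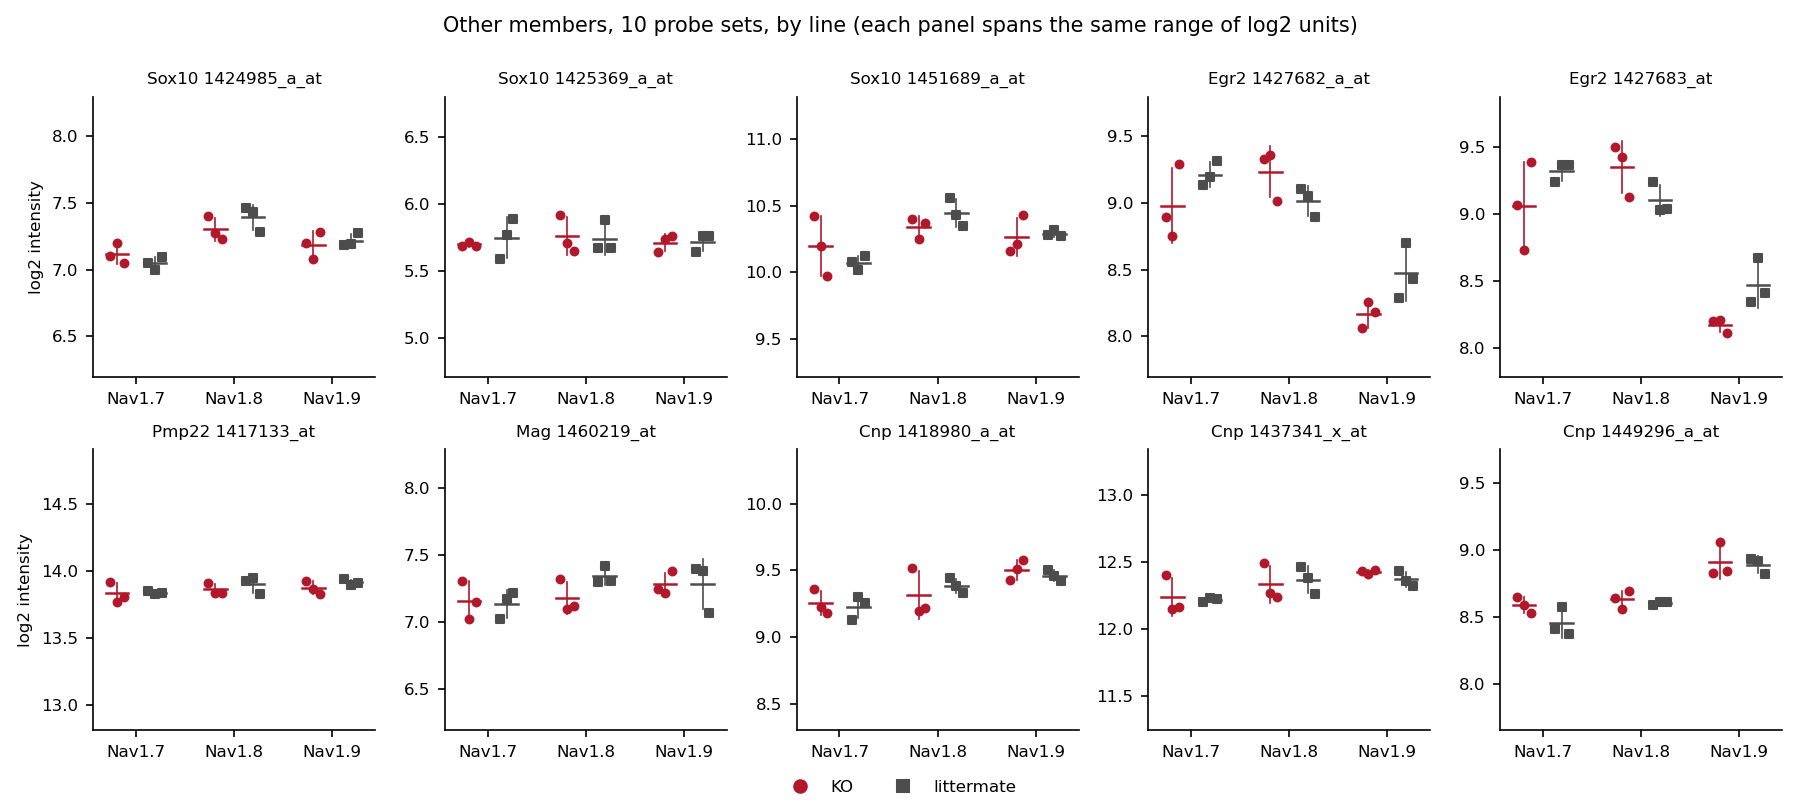
Log2 intensity (y axis) of the 10 probe sets of Sox10, Egr2, Pmp22, Mag and Cnp on each of the 18 arrays, by line (x axis), with red circles for KO and grey squares for littermates, and the group mean and SD as a line and a whisker (n = 3). The Nav1.9 KO arrays of Egr2 1427683_at sit between 8.11 and 8.21, below their littermates, and Pmp22 stays between 13.77 and 13.95 on all arrays.

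Mbp, the gene with most members here, gave different readings on its 8 probe sets. Mbp is among the few genes that the study listed from these arrays, as lower in Nav1.7 KO and higher in Nav1.9 KO. Its choice as a member is therefore not independent of the results in these lines or of the contrasts between them. 1425264_s_at fell in Nav1.7 KO DRG, with 8.98, 8.87 and 8.76 on the KO arrays, against 9.55, 9.48 and 9.38 on the littermate arrays. Every KO array lay below every littermate array. The means were 8.87 ± 0.108 in KO and 9.47 ± 0.0899 in littermates (SD, n = 3 each), a difference of -0.60 (standard error 0.0656, 95% interval -0.74 to -0.46). That is 1.52-fold lower (adjusted p = 5.78e-05 from limma), and the call held with each of the 18 arrays left out in turn. By an analysis of variance per probe set it passed at an unadjusted p under 0.01 and did not pass after Benjamini-Hochberg adjustment.

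In the other 2 lines the same probe set stayed near its littermates. It read 9.45, 9.51 and 9.49 in Nav1.8 KO DRG against 9.52, 9.52 and 9.53 in littermates, a difference of -0.04 (95% interval -0.18 to 0.10, adjusted p = 0.913 from limma). It read 9.14, 9.12 and 9.10 in Nav1.9 KO against 9.25, 9.37 and 9.12, a difference of -0.13 (95% interval -0.27 to 0.01, adjusted p = 0.518). The Nav1.8 KO arrays were all a little below their littermates, and the Nav1.9 groups overlapped.

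**Figure D3:**
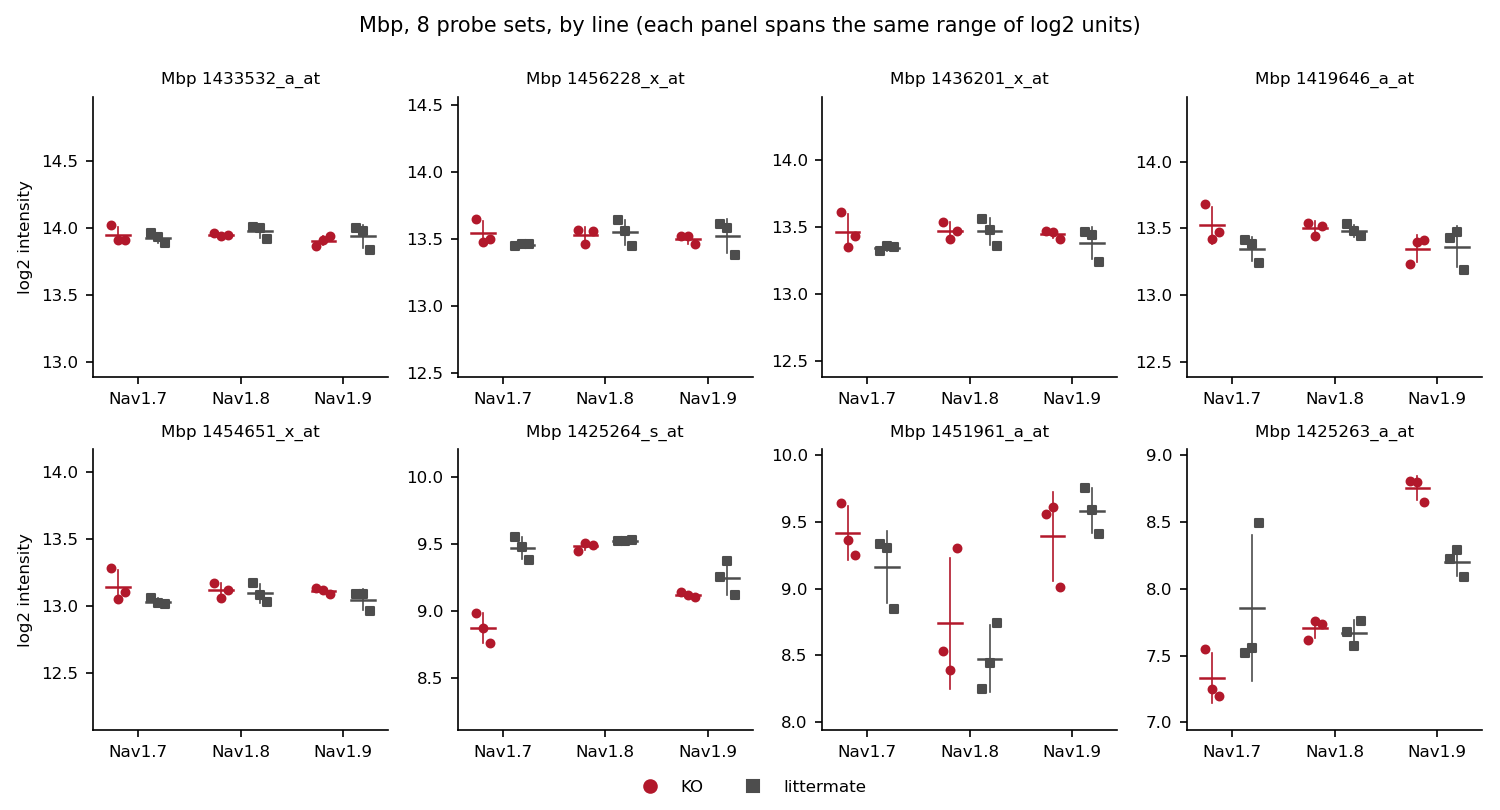
Log2 intensity (y axis) of the 8 Mbp probe sets on each of the 18 arrays, by line (x axis), with red circles for KO and grey squares for littermates, and the group mean and SD as a line and a whisker (n = 3). The panels span equal ranges of log2 units: 5 probe sets show near-flat levels between 12.96 and 14.02, while 1425264_s_at is low on the 3 Nav1.7 KO arrays and 1425263_a_at is high on the 3 Nav1.9 KO arrays.

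The 5 probe sets that give Mbp its brightest signal did not follow 1425264_s_at. They are 1419646_a_at, 1433532_a_at, 1436201_x_at, 1454651_x_at and 1456228_x_at, with values between 12.96 and 14.02, where the highest value of any probe set on an array was 14.72. In the Nav1.7 line their differences were 0.02 to 0.18, all above 0, with adjusted p from 0.344 to 0.923 (limma) and 95% intervals within -0.09 to 0.36. A decrease of 0.60 therefore lies outside all 5 intervals. In the Nav1.8 line they were -0.03 to 0.02 (adjusted p 0.935 to 0.989) and in the Nav1.9 line -0.03 to 0.07 (0.777 to 0.972). As an example, 1433532_a_at read 14.02, 13.91 and 13.91 in Nav1.7 KO DRG, against 13.96, 13.93 and 13.89 in littermates. Between 0.0688% and 0.691% of all probe sets were brighter than these 5, and how far such bright probe sets still respond to a change in RNA was not tested.

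The largest of these 5 differences was that of 1419646_a_at, which read 13.68, 13.42 and 13.47 in Nav1.7 KO against 13.41, 13.38 and 13.24 in littermates. The KO arrays lay above all littermate arrays, by 0.18 on average (unadjusted p = 0.0412, adjusted p = 0.344 from limma). Nav1.7 KO replicate 1 was the highest Nav1.7 array for each of the 5. On that array the mean of 5 skeletal muscle markers was also the highest of all 18, at 10.10, and its part in the result was not tested.

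The other 2 Mbp probe sets were less steady. 1425263_a_at read 7.55, 7.25 and 7.20 in Nav1.7 KO, against 7.52, 7.56 and 8.49 in littermates, a difference of -0.52 (unadjusted p = 0.0102, adjusted p = 0.179 from limma). Littermate replicate 3 stood apart, and without it the difference was -0.21 (adjusted p = 0.431). For the Nav1.8 line the values were 7.62, 7.76 and 7.74 in KO against 7.68, 7.57 and 7.76, a difference of 0.03 (adjusted p = 0.978).

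In the Nav1.9 line 1425263_a_at was higher on every KO array, with 8.81, 8.80 and 8.65 in KO against 8.22, 8.29 and 8.09 in littermates. The difference was 0.55 (standard error 0.180, 1.47-fold, 95% interval 0.17 to 0.93), with unadjusted p = 0.00729 and adjusted p = 0.268 from limma. It passed at an adjusted p of 0.0173 when Nav1.7 littermate replicate 3, an array of another line that shares the estimate of the spread, was left out. Over the 27 alternatives tried the adjusted p ran from 0.0173 to 0.498, and this was the only one under 0.05.

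1451961_a_at had the widest spread between arrays of 1 group, 0.303 (SD within groups), against 0.0525 for 1433532_a_at. It read 9.64, 9.36 and 9.25 in Nav1.7 KO against 9.33, 9.30 and 8.85, and 8.53, 8.39 and 9.30 in Nav1.8 KO against 8.25, 8.44 and 8.74. In the Nav1.9 line it read 9.56, 9.61 and 9.01 in KO against 9.75, 9.59 and 9.41. All 3 pairs of groups overlapped, and the differences of 0.25, 0.26 and -0.19 did not pass (adjusted p = 0.679, 0.796 and 0.824 from limma).

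The difference between lines was tested in its own right. The Nav1.7 effect minus the Nav1.8 effect on 1425264_s_at was -0.56 (standard error 0.0928, adjusted p = 0.00601 from limma), the only 1 of the 18 members that passed this contrast (1.09% of all probe sets did). This value was -0.54 and did not pass in a model that also held the Xist class of each array (adjusted p = 0.0966). Only the Nav1.7 KO and Nav1.8 KO groups hold both classes, so that model gives this contrast less precision. The Nav1.7 effect minus the Nav1.9 effect was passed by 2 of 18 members, both of Mbp (1.63% of all probe sets). For 1425264_s_at it was -0.47 (adjusted p = 0.0147). For 1425263_a_at it was -1.08 (adjusted p = 0.0425), with the Nav1.7 and Nav1.9 effects of opposite sign, and this call was lost with 14 of the 18 arrays left out in turn (adjusted p 0.0515 to 0.107). For the Nav1.9 effect minus the Nav1.8 effect 0 of 18 passed, 2 had an unadjusted p under 0.05, and 0.0244% of all probe sets passed. The contrasts share arrays of the Nav1.7 line, so they are not independent of each other. Nor are the Mbp contrasts independent of the study's listing of Mbp in the Nav1.7 and Nav1.9 lines.

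Pmp22 was among the brightest transcripts on the arrays and the steadiest member. 1417133_at read 13.92, 13.77 and 13.81 in Nav1.7 KO DRG against 13.85, 13.83 and 13.84 in littermates. It read 13.91, 13.84 and 13.84 in Nav1.8 KO against 13.93, 13.95 and 13.83, and 13.93, 13.87 and 13.83 in Nav1.9 KO against 13.94, 13.90 and 13.91. The groups overlapped in each line, and the differences of -0.01, -0.04 and -0.04 had 95% intervals within -0.15 to 0.10 (adjusted p = 0.972, 0.884 and 0.853 from limma). A change of 1.5-fold in the signal of this probe set lies outside all 3 intervals. Only 0.0888% of all probe sets were brighter, and how far so bright a probe set still responds to a change in RNA was not tested.

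Mag read 7.31, 7.02 and 7.15 in Nav1.7 KO DRG against 7.02, 7.17 and 7.22 in littermates on its probe set 1460219_at. In Nav1.8 KO it read 7.32, 7.10 and 7.12 against 7.30, 7.42 and 7.31, and in Nav1.9 KO 7.25, 7.22 and 7.38 against 7.40, 7.38 and 7.07. The differences were 0.02, -0.17 and 0.00, and their 95% intervals reach from -0.37 to 0.22 (adjusted p at least 0.684 from limma).

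Cnp was read by 3 probe sets, and none passed between KO and littermates. 1449296_a_at read 8.65, 8.59 and 8.53 in Nav1.7 KO against 8.41, 8.57 and 8.37, a difference of 0.14 (unadjusted p = 0.0573, adjusted p = 0.394 from limma). In the Nav1.8 line it read 8.64, 8.56 and 8.69 in KO against 8.59, 8.61 and 8.61, and in the Nav1.9 line 8.83, 9.06 and 8.84 in KO against 8.93, 8.92 and 8.82. 2 of the 3 Nav1.7 KO arrays lay above all Nav1.7 littermates, and the groups overlapped in every line. The brightest Cnp probe set, 1437341_x_at, lay between 12.15 and 12.49 on all arrays with differences of 0.02, -0.04 and 0.06, and 1418980_a_at differed by 0.03, -0.07 and 0.05.

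Counts of members whose KO and littermate arrays did not overlap were small as well. The Nav1.7 line had 2 of 18 higher in KO and 1 lower, beside 18% of all probe sets in either direction. The Nav1.8 line had 1 lower (14.1% of all), and the Nav1.9 line 1 higher and 2 lower (15.9% of all). Read against these shares, the members' counts do not stand out.

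More members passed between the littermates of different lines than between KO and littermates within a line. Line, litter and any batch cannot be told apart in this comparison, and the Nav1.7 littermates were all Xist-high while the others were all Xist-low. Of 18 members, 4 passed between Nav1.9 and Nav1.7 littermates (22.2%, beside 9.42% of all probe sets) and 5 between Nav1.9 and Nav1.8 littermates (27.8%, beside 10.8%). Between Nav1.7 and Nav1.8 littermates 3 passed (16.7%, beside 18.7%), a share below that of all probe sets. In a model with the Xist class, 0 passed between Nav1.7 and Nav1.8 littermates and 1 between Nav1.9 and Nav1.7 littermates. The Xist term rests on the Nav1.7 KO and Nav1.8 KO groups, which hold both classes, so these littermate comparisons lose precision in that model. A call lost there cannot tell an effect of Xist class from lower precision. With 1 probe set per gene, 1 passed in each of the 3 comparisons. Some markers of other cells differed too: of 8 macrophage markers 4, of 8 endothelial and pericyte markers 4 and of 8 fibroblast markers 3 were lower in Nav1.7 than in Nav1.8 littermates, and 0 were higher. Over all genes 20.6% passed in this comparison, in either direction. Of 10 neuron markers 3 were higher and 1 lower, and of 8 satellite glia markers 1 was higher and 1 lower. Of the oligodendrocyte, muscle, fat and blood markers 0 passed. Their part in the member differences was not tested.

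Egr2 was lowest in the Nav1.9 line. On 1427683_at the Nav1.9 littermates averaged 8.47 ± 0.176 and the Nav1.7 littermates 9.33 ± 0.0780 (SD, n = 3 each), a difference of -0.85, 1.81-fold lower (adjusted p = 0.000801 from limma). Against the Nav1.8 littermates, at 9.10 ± 0.119, the difference was -0.63 (1.55-fold lower, adjusted p = 0.00674). Every Nav1.9 array, KO and littermate, lay below every array of the other lines on this probe set. 1427682_a_at differed by -0.74 (adjusted p = 0.00197) and -0.54 (adjusted p = 0.0134) in the same contrasts. The second of these calls was lost without Nav1.8 littermate replicate 1 or 2 or Nav1.9 littermate replicate 1 (adjusted p 0.0528 to 0.0707). The Nav1.7 and Nav1.8 littermates, next to each other in this order, did not pass (0.22, adjusted p = 0.279 on 1427683_at). A model with the Xist class gave -0.71 between Nav1.9 and Nav1.7 littermates on 1427683_at (adjusted p = 0.0639) and -0.63 on 1427682_a_at (adjusted p = 0.0898).

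For Mbp, 1451961_a_at averaged 9.58 ± 0.166 in Nav1.9 littermates and 8.48 ± 0.245 in Nav1.8 littermates (SD, n = 3 each), 2.15-fold higher (adjusted p = 0.00391 from limma). The Nav1.7 littermates, at 9.16 ± 0.267, lay between them and were 0.68 above the Nav1.8 littermates (adjusted p = 0.0378). This second call was lost without any of 4 littermate arrays, Nav1.7 replicates 1 and 2 and Nav1.8 replicates 1 and 2 (adjusted p 0.0995 to 0.141). It was also lost with a trended robust variance prior (adjusted p = 0.0696) and with the Xist class, where the difference was 0.48 (adjusted p = 0.415). 1425264_s_at ran the other way, with the Nav1.9 littermates 0.28 below the Nav1.8 littermates, at 9.25 ± 0.125 against 9.52 ± 0.00950 (adjusted p = 0.0127, and 0.0625 without Nav1.9 littermate replicate 3). It was also 0.22 below the Nav1.7 littermates (adjusted p = 0.0423), a call lost with 13 of the 18 arrays left out in turn, with median centring (adjusted p = 0.0558) and with the Xist class (adjusted p = 0.303). On 1433532_a_at the 3 littermate groups differed by at most 0.05 (adjusted p at least 0.579), so the Mbp probe sets disagreed between lines as they did between KO and littermates.

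Cnp 1449296_a_at was higher in Nav1.9 littermates, at 8.89 ± 0.0621, than in Nav1.7 littermates, at 8.45 ± 0.110 (SD, n = 3 each), by 0.44 or 1.36-fold (adjusted p = 0.000736 from limma). It was 0.29 above the Nav1.8 littermates (adjusted p = 0.0131, and 0.0559 without Nav1.9 littermate replicate 1). Sox10 1451689_a_at was 0.37 lower in Nav1.7 than in Nav1.8 littermates (adjusted p = 0.0108, and 0.0568 without Nav1.8 littermate replicate 1), and 1424985_a_at was 0.34 lower (adjusted p = 0.00218). Neither Sox10 difference passed in a model with the Xist class (adjusted p = 0.197 for each). Pmp22 and Mag passed in none of the 3 comparisons of littermates.

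How the members varied together within groups was described by correlating each probe set's deviations from its 6 group means over the 18 arrays. These arrays share their RNA and their normalization between probe sets, and no p is given. The 5 bright Mbp probe sets moved together, with r from 0.73 to 0.97 (rho 0.62 to 0.95) over 10 pairs. 1425264_s_at correlated with them at 0.45 to 0.67 (rho 0.23 to 0.40), 1451961_a_at at 0.16 to 0.29 and 1425263_a_at at -0.12 to 0.25. Mag (0.60 to 0.72), Cnp 1437341_x_at (0.56 to 0.83), Pmp22 (0.32 to 0.76) and Sox10 1451689_a_at (0.47 to 0.58) went with the bright Mbp probe sets, and Egr2 at 0.00 to 0.35 did so little. The dimmer Sox10 probe sets did not, with 1424985_a_at at -0.17 to 0.04 and 1425369_a_at at -0.12 to 0.05. Of the dimmer Cnp probe sets, 1418980_a_at lay at 0.41 to 0.57 and 1449296_a_at at 0.33 to 0.57. The lowest of the 153 pairs was Mbp 1451961_a_at with Sox10 1424985_a_at, at r = -0.64 (rho = -0.66). The median of all pairs was 0.27.

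**Figure D4:**
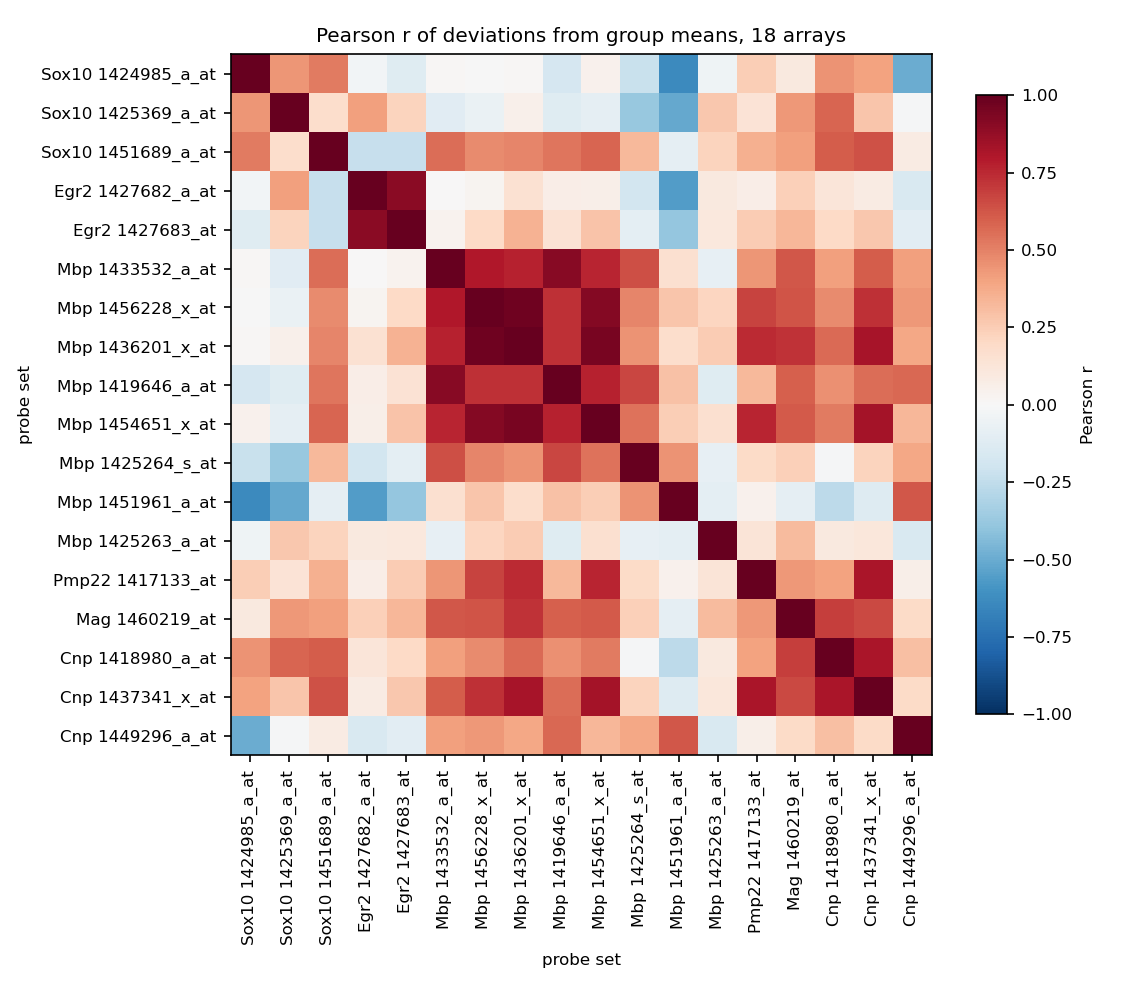
Pearson's r (colour, blue for -1 to red for 1) between the deviations from group means of each pair of the 18 member probe sets over 18 arrays, with the probe sets on both axes. The 5 bright Mbp probe sets form a red block of 0.73 to 0.97 that Mag, Pmp22 and the brightest Cnp probe set extend. Mbp 1425263_a_at, 1451961_a_at, the Egr2 pair and the dimmer Sox10 probe sets stand mostly outside it.

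The remaining genes of Schwann cell biology were taken from 6 lists, 104 of whose 113 genes have a probe set named for them alone, each gene by its brightest. In Nav1.7 KO DRG 2 of the 104 rose and 3 fell (4.81%, beside 3.24% of 18193 genes). In Nav1.8 KO DRG 0 changed (0.011% of all genes), and in Nav1.9 KO DRG 2 fell (1.92%, beside 0.324%). Jun passed in both the Nav1.7 and the Nav1.9 line and had been listed by the study from these arrays. The shares of these lines are therefore not independent of that listing. Their median difference was 0.02, -0.03 and -0.02 in the Nav1.7, Nav1.8 and Nav1.9 lines, and that of all genes 0.01, -0.01 and 0.00. Between littermates of different lines more of the 104 genes passed: 31 between Nav1.7 and Nav1.8 (29.8%, beside 20.6% of all genes), 17 between Nav1.9 and Nav1.7 (16.3%, beside 10.5%) and 22 between Nav1.9 and Nav1.8 (21.2%, beside 11%). With the Xist class in the fit, which lowers the precision of the first 2 comparisons, their counts were 8 and 5. Without Nav1.8 littermate replicate 1 the first count was 18. Without Nav1.7 littermate replicate 3 the second was 10, and without Nav1.8 littermate replicate 2 or Nav1.9 littermate replicate 1 the third was 12.

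Among 17 other genes of myelin structure, 15 did not pass in Nav1.7 KO DRG, where 3.24% of all genes passed. Tspan2 fell and Cd9 rose. Both encode tetraspanins, membrane organizers. Tspan2 was 10.24 ± 0.107 in KO and 10.74 ± 0.0408 in littermates (SD, n = 3 each), 1.41-fold lower (adjusted p = 0.00382 from limma). Cd9 was 13.86 ± 0.0277 in KO and 13.68 ± 0.0304 in littermates, 1.14-fold higher (adjusted p = 0.0296), and did not pass without any of the 6 Nav1.7 arrays (adjusted p 0.0530 to 0.113). In the Nav1.8 and Nav1.9 lines 0 of 17 passed, and 0 and 1 had an unadjusted p under 0.05. Of 22 genes of myelin lipid and cholesterol synthesis 0 passed in any line, and 4, 3 and 1 had an unadjusted p under 0.05 in the Nav1.7, Nav1.8 and Nav1.9 lines. The nearest was Lpin1, which makes the lipid precursor diacylglycerol, at -0.15 in the Nav1.7 line (adjusted p = 0.0638).

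Of 20 regulators of Schwann cell differentiation, 1 rose and 1 fell in Nav1.7 KO DRG and 2 fell in Nav1.9 KO DRG. Over all genes 3.24% passed in Nav1.7 KO and 0.324% in Nav1.9 KO. Jun, the transcription factor of the repair Schwann cell and of injured neurons, was 10.56 ± 0.183 in Nav1.7 KO and 10.15 ± 0.0485 in littermates (SD, n = 3 each), 1.33-fold higher (adjusted p = 0.00438 from limma). It was 10.09 ± 0.0651 in Nav1.9 KO against 10.51 ± 0.0198, 1.34-fold lower (adjusted p = 0.0206, and 0.0644 to 0.0730 without Nav1.9 littermate replicate 1 or 3 or Nav1.9 KO replicate 1 or 2). Id4, an inhibitor of basic helix-loop-helix factors, fell 1.34-fold in Nav1.7 KO (10.94 ± 0.153 against 11.37 ± 0.136, adjusted p = 0.00499). Egr3, a relative of Egr2 that neurons also express, was 7.92 ± 0.273 in Nav1.9 KO and 8.85 ± 0.333 in littermates, a difference of -0.93 (adjusted p = 0.0344). That call was lost with 8 of the 18 arrays left out in turn (adjusted p 0.0501 to 0.146). Of the same 20 genes 0 passed in the Nav1.8 line and 2 had an unadjusted p under 0.05. Jun and Egr3 also passed between Nav1.9 littermates and the littermates of both other lines. Jun in Nav1.9 KO, at 10.09, lay near the Nav1.7 littermates, at 10.15, while the Nav1.9 littermates were higher, at 10.51. The study had listed Jun as higher in Nav1.7 KO and lower in Nav1.9 KO, so its calls and the counts of this list are not independent of that listing. With each line fitted alone, none of the Jun, Id4 and Egr3 calls passed (adjusted p 0.110 to 0.261 from limma).

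Of 15 genes of immature, non-myelinating or repair Schwann cells, 1 passed in Nav1.7 KO DRG, beside 3.24% of all genes. This was Ncam1, 1.15-fold lower in KO (a difference of -0.20, standard error 0.0496, adjusted p = 0.0498 from limma). It encodes a cell adhesion molecule that neurons make too, and its call was lost with 17 of the 18 arrays left out in turn (adjusted p 0.0544 to 0.201). Gap43, a growth-associated protein, differed by 0.19 in Nav1.7 KO (adjusted p = 0.173) and by -0.18 in Nav1.9 KO (adjusted p = 0.315). Of 19 genes of neuregulin, laminin and axon signals and 11 genes of the node and paranode, 0 passed in any line. The smallest unadjusted p of the signal list was that of Lamb2, a laminin chain, at 0.33 in Nav1.8 KO (unadjusted p = 0.00362, adjusted p = 0.514). In the node list it was Cntnap1, the paranodal protein Caspr, at 0.23 in Nav1.9 KO (unadjusted p = 0.00718, adjusted p = 0.266). Its probe set averaged 5.32 in Nav1.9 KO and 5.08 in littermates, below the array medians, so it may hold little signal.

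Markers of other cells were set beside these results. Oligodendrocytes share Mbp, Mag, Cnp and Sox10 with Schwann cells, and the mean of 8 oligodendrocyte markers lay between 5.47 and 5.72 on all arrays. Mog, which oligodendrocytes make and Schwann cells do not, averaged 3.48 in Nav1.7 KO and 3.53 in littermates. Aspa, of the same 8 markers, read much higher, with its values given under the other observations. The mean of 10 neuron markers lay between 13.20 and 13.26 and that of 8 satellite glia markers between 10.86 and 11.05. In the Nav1.7 line, the line of the Mbp 1425264_s_at decrease, 8 macrophage markers averaged 7.05 to 7.44 on KO arrays and 6.67 to 7.04 on littermate arrays, and 1 of the 8, Adgre1, rose. Over all genes 3.24% passed in this line. 1 of 8 satellite glia markers, Fabp7, rose there too, 1.28-fold (adjusted p = 0.0283 from limma). The macrophage markers averaged 7.24 to 7.36 on Nav1.8 littermate arrays and 7.23 to 7.27 on Nav1.9 littermate arrays, above the Nav1.7 littermates. Adgre1 and Fabp7 also passed between the Nav1.7 littermates and the littermates of both other lines. Avil, the gene that drives Cre in the Nav1.7 line, was 1.56-fold lower in Nav1.7 KO (adjusted p = 3.58e-07). The 5 muscle markers ranged from 5.75 to 10.10 over all arrays, with overlap of KO and littermates in every line. The part of these in the myelin results was not tested.

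The genes whose pattern over the 18 arrays was most like each member's were found by Pearson's r, each gene by its brightest probe set, out of 18187 genes. For Pmp22 they were Ugt8a (r = 0.88, rho = 0.86), Fpr-rs4 (0.85) and Ccnd1 (0.84), and for Cnp they were Paqr6 (0.85), Ugt8a (0.84) and Sh3d19 (0.84). Ugt8a encodes the enzyme that makes galactosylceramide, the main glycolipid of myelin. For Mbp they were Eef2k (0.86), Secisbp2l (0.83) and D330050G23Rik (0.79), and for Mag Fxyd3 (0.84), Scgb3a2 (0.82) and Lipn (0.80). For Sox10 they were Fosb (0.87), Ylpm1 (0.86) and Septin9 (0.85). For Egr2 they were Actl6b (0.90), Dym (0.88) and Scn2b (0.87), with rho of 0.76, 0.71 and 0.61. The Nav1.9 arrays lie apart from the rest for Egr2, and the highest of 18187 values is given here as a description.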

How the data were processed

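The authors deposited log2 intensities, 1 per probe set and array, made in Affymetrix Expression Console. The summary method, normalization between arrays and version are not given in the sources used here, and the log2 scale was judged from the values, so fold changes inherit whatever normalization was applied. Groups follow titles and genotypes, because the source name field gives littermate control for each of the 18 samples. Of 45101 probe sets, 64 controls were left out. Of the rest, 34945 have 1 gene symbol in the platform annotation, 932 several and 9160 are not named. Dim probe sets were kept.

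All arrays entered 1 fit in limma 3.58.1 (R 4.3.3; lmFit, eBayes) with 6 group means, 12 residual and 4.02 prior degrees of freedom. P-values were adjusted by Benjamini-Hochberg over 45037 probe sets, also for genes of the lists. The fit was tested on simulated data. With 3 arrays a group an exact permutation test cannot reach a p below 0.1, and none was run. The number of arrays limits the precision. Members and lists were chosen with earlier results of these data known. Named are all member probe sets, the targeted genes, Xist, the 3 most alike genes per member and, from the 3 smallest p-values per list and line, those that passed and a few nearest to passing. Avil, Fabp7, Adgre1, Aspa and Mog were named after their values were seen. Alternatives were other normalizations, filters, variance models, covariates, sample sets and tests, and leaving out each array in turn. RefSeq promoter windows were searched for exact matches.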

Additional observations from a re-analysis of the deposited data

Results flagged for a closer look

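For 2 Mbp probe sets a limma contrast of the KO effects of different lines, adjusted over all probe sets, passed the threshold, and 2 of the 3 calls depend on the fit. For Mbp 1425264_s_at the Nav1.7 effect was more negative than the Nav1.8 effect by -0.56 (adjusted p = 0.00601) and than the Nav1.9 effect by -0.47 (adjusted p = 0.0147). With the Xist class in the model, where all Nav1.7 littermates are high and all Nav1.8 littermates low, the difference from Nav1.8 was -0.54 and did not pass (adjusted p = 0.0966). The probe set was lower in 3 of 3 Nav1.7 KO arrays than in any Nav1.7 littermate. For Mbp 1425263_a_at the Nav1.7 effect minus the Nav1.9 effect was -1.08 (adjusted p = 0.0425), with KO lower on average in the Nav1.7 line and higher on all 3 KO arrays in the Nav1.9 line. This call was lost with 14 of the 18 arrays left out in turn (adjusted p 0.0515 to 0.107) and under 4 of 8 other alternatives (0.0531 to 0.0925). In the Nav1.7 line this rests in part on littermate replicate 3, at 8.49 where the other littermates read 7.52 and 7.56. Mbp was listed by the study with opposite signs in the Nav1.7 and Nav1.9 lines, so its contrasts are not independent of that choice.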

How the results depend on the processing

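Of the 1 member probe set called in Nav1.7 KO DRG, Mbp 1425264_s_at, 0 remained when 1 probe set per gene or no probe set with the suffix s_at or x_at was used, which leaves it out, and 0 by analysis of variance with Benjamini-Hochberg adjustment (1 at an unadjusted p under 0.01). By that unadjusted analysis of variance 1 member was called in Nav1.9 KO, and the genes of the 6 lists gave 5 in Nav1.9 KO and 1 in Nav1.8 KO, while the adjusted one gave 0 in Nav1.7 and 0 in Nav1.9 KO. For the Nav1.7 effect minus the Nav1.8 effect, the 1 call became 0 with the Xist class in the model, with 1 probe set per gene and without s_at and x_at. For the Nav1.7 effect minus the Nav1.9 effect, the 2 calls became 1 with array weights, the Xist class, a trended robust variance prior, a block for replicate or no s_at and x_at, and 0 with 1 probe set per gene. Member calls between littermates became 0 (Nav1.7 against Nav1.8) and 1 (Nav1.9 against Nav1.7) with the Xist class, and 1 in each of the 3 comparisons with 1 probe set per gene. List calls between the same littermates became 8 and 5 with the Xist class, a fit with lower precision for these comparisons. List calls in Nav1.7 and Nav1.9 KO were 1 and 0 with each line fitted alone, and 1 and 1 at the study's thresholds with p from limma.

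With each array left out in turn, member calls were 1 to 1 in Nav1.7 KO, 0 to 0 in Nav1.8 KO and, for Nav1.9 KO, 0 to 1 (1 without Nav1.7 littermate replicate 3). Member calls for the differences between effects were 1 to 1, 1 to 2 and 0 to 0. Between littermates they were 1 to 3 for Nav1.7 against Nav1.8 (1 without Nav1.8 littermate replicate 1), 3 to 5 for Nav1.9 against Nav1.7 and 3 to 6 for Nav1.9 against Nav1.8 (3 without Nav1.9 littermate replicate 1). List calls were 3 to 4 in Nav1.7 KO, 0 to 0 in Nav1.8 KO and 0 to 2 in KO of Nav1.9, and between littermates 18 to 35 (18 without Nav1.8 littermate replicate 1), 10 to 18 (10 without Nav1.7 littermate replicate 3) and 12 to 22 (12 without Nav1.8 littermate replicate 2 or Nav1.9 littermate replicate 1). Over single member probe sets, 1787 alternative values kept their side of the threshold, 57 of them with a change of sign while not called; 50 lost a call, 1 gained one and 0 reversed a call. Quantile normalization, median centring and a filter on dim probe sets moved no member count by over 1.5 times. The cause of these changes was not tested.

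Replicate numbers do not pair the arrays: same-numbered KO and littermate arrays correlated at -0.12 to 0.27 in their deviations over 9 pairs, and 3 of 9 did so best with their own number. With the replicate block, Mbp 1425264_s_at in Nav1.7 KO had an adjusted p of 0.000503 in limma, Mbp 1425263_a_at lost its difference between Nav1.7 and Nav1.9 (adjusted p = 0.0925), and list calls were 3 in Nav1.7 KO and 1 in Nav1.9 KO. Precision is limited by 3 arrays a group, and dim probe sets were read without detection calls.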

Other observations

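Aspa, listed among the oligodendrocyte markers, encodes aspartoacylase, which splits N-acetylaspartate, and it was the only 1 of the 8 markers that passed in a KO comparison. It was 9.95 ± 0.0951 in Nav1.9 KO and 9.45 ± 0.0505 in Nav1.9 littermates (SD, n = 3 each), 1.42-fold higher (adjusted p = 0.0419 from limma). In the Nav1.9 littermates it was also 1.63-fold lower than in Nav1.7 littermates (adjusted p = 0.000261) and 1.99-fold lower than in Nav1.8 littermates (adjusted p = 4.95e-05). The Nav1.7 and Nav1.8 KO differences were 0.26 and -0.16 (adjusted p = 0.231 and 0.695). Over all genes 0.324% passed in Nav1.9 KO.

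Among 17 genes of myelin structure, 7 were lower and 2 higher in Nav1.7 than in Nav1.8 littermates, and 3 were higher and 0 lower in Nav1.9 than in Nav1.7 littermates. Over all genes 20.6% and 10.5% passed in these comparisons. With the Xist class, a fit with lower precision here, the calls over the 6 lists were 8, against 31 without it, and 5, against 17. Of 20 regulators, Jun, Egr3 and Nab1 were among those that passed between Nav1.9 littermates and the littermates of both other lines. Line, litter, Xist class and any batch cannot be told apart here.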
